A study of Mus musculus with 15 samples.

Results

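Acot7 and 34 other genes of acyl-CoA handling and fatty acid oxidation, 35 of the 29989 genes tested, were measured in regulatory T (Treg) cells, the CD4+ T cells that restrain other immune cells. The set was chosen by the lower level of Acot7 in unstimulated DOCK8-deficient cells than in unstimulated WT cells, and the other 34 genes were added for their place in the same pathway. That difference is therefore a description here, with no test. The cells came from female C57BL/6 mice that carried floxed Dock8 on both alleles and a Foxp3 YFP-Cre fusion on 1 X chromosome. YFP+ cells, in which Cre is made and Dock8 deleted, are called KO, and YFP- cells of the same kind of mouse, with floxed but undeleted Dock8, are called WT. Foxp3 drives Cre, so only Foxp3-expressing cells delete the gene, and KO and WT cells use different X chromosomes. Dock8 deletion therefore goes with Cre, YFP and the fused Foxp3 allele, and these cannot be told apart where KO and WT are compared. CD25+CD39+ cells were sorted and cultured for 16 h, either with beads bearing anti-CD3 and anti-CD28 at a ratio of 1 to each cell, which stimulate the T cell receptor and its costimulator, or in medium alone. Smart-Seq2 libraries were made from 2 KO and 3 WT samples with beads and from 6 KO and 4 WT samples without. The labels call samples independent without saying whether they came from separate mice, so p-values cover only the spread among the samples, which may be technical.

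Fatty acids enter metabolism as thioesters of coenzyme A. Acyl-CoA synthetases make the thioester, thioesterases such as Acot7 cleave it again, and the carnitine shuttle carries long chains into mitochondria. There a cycle of dehydrogenase, hydratase, hydroxyacyl dehydrogenase and thiolase shortens the chain and passes electrons through the electron transfer flavoprotein to the respiratory chain, while peroxisomes shorten very long and branched chains. In T cells, Treg cells are known for their use of fatty acid oxidation, and activation through the T cell receptor is known to remodel lipid metabolism.

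The promoter windows of Acot7, Acsl5, Etfb and Hsd17b10 are shown because these genes were higher with beads than without in KO cells under all 4 scalings described below, each with an adjusted p under 0.05 apart from Acot7, for which no p is given. They are RefSeq windows on GRCm38.p6 of 250 bases before to 50 after a listed start. The windows of Acot7 and Acsl5 lie inside the annotated genes, which begin at 152178134 and 55251938. They therefore belong to a start within the gene. Which start these cells used is unknown, since TPM sums over the whole gene. RefSeq windows were found for 30 of the 35 genes. Capitals mark GC boxes (GGGCGG, on either strand) and CCAAT boxes (CCAAT, on either strand).

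Acot7 (chr4:152185358-152185657, plus strand): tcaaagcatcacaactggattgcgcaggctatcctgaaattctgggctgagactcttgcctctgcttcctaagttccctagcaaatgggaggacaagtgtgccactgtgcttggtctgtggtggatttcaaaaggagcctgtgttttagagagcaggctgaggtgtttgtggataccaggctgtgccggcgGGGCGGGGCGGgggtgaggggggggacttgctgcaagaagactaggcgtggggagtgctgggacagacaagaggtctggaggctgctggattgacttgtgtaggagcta
Acsl5 (chr19:55253119-55253418, plus strand): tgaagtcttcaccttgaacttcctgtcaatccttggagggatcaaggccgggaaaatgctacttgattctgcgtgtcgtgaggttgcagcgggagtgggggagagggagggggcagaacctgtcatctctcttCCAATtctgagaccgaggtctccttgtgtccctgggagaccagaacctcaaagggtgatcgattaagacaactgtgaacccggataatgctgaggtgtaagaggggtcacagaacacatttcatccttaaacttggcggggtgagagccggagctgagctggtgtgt
Etfb (chr7:43443822-43444121, plus strand): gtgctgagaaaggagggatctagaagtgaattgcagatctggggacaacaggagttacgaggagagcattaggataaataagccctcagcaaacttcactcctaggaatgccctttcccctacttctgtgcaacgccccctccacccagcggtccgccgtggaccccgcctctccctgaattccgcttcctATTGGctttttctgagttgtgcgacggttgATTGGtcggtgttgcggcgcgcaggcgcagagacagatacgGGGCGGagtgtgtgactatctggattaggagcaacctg
Hsd17b10 (chrX:152001646-152001945, plus strand): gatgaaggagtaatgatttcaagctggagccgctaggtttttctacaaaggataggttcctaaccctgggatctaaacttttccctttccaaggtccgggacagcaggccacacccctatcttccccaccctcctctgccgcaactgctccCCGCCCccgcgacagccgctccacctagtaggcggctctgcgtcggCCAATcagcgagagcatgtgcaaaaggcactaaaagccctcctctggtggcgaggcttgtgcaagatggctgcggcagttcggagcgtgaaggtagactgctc

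A GC box stood in the windows of Acot7, Etfb and Hsd17b10, and a CCAAT box in those of Acsl5, Etfb and Hsd17b10. Over the 30 genes with a window, 24 had a GC box and 18 a CCAAT box, beside 35.7% and 37.4% of the 32851 RefSeq promoter windows. A nuclear receptor half-site (AGGTCA) was found for 5 of the 30 genes and in 16.3% of all windows. The ETS letters CCGGAAG stood in 3 genes' windows and 8.86% of all, TATAAA in 1 and 13.6%, TCAAGGTCA, which contains the half-site, in 1 and 0.423%, and CACGTG in 0 and 7.15%. These are matches of letters on either strand, and GGGCGG matches can overlap in a run of G.

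The deposited values are TPM, a measure of relative abundance per transcript length that keeps no depth, so the precision that sequencing depth gives is unknown. Dock8 was at 5.82 and 7.90 TPM in KO cells with beads and 8.71 to 10.1 TPM in WT cells with beads. Without beads it was at 6.70 to 11.9 TPM in KO and 9.15 to 21.98 TPM in WT cells, so the unstimulated groups overlapped. TPM sums over the whole gene, and the sources used here do not name the deleted exons. All 7 Treg markers listed (Foxp3, Il2ra, Ctla4, Ikzf2, Entpd1, Cd4 and Cd3e) were detected in every group, with sums of 750 to 771 TPM in KO and 810 to 875 TPM in WT with beads, and 301 to 478 TPM in KO and 417 to 674 TPM in WT without. Foxp3 itself was lower in KO without overlap in both conditions, at 42.2 and 42.7 TPM in KO and 88.6 to 106 TPM in WT with beads, and 6.29 to 25.98 TPM in KO and 29.3 to 51.6 TPM in WT without (limma adjusted p = 1.00 and 0.0646). Ctla4 was lower in KO without overlap in unstimulated cells (19.9 to 51.6 TPM in KO and 52.4 to 95.9 TPM in WT, limma adjusted p = 0.123). With beads, Il2ra and Ikzf2 were also lower in KO without overlap (log2 -0.69 and -0.63). Ctla4, Entpd1, Cd4 and Cd3e overlapped there, with differences above 0. Of all genes, 8.02% with beads and 1.27% without were lower in KO without overlap. The part of these in the differences between KO and WT was not tested. Predicted genes, named Gm and a number, held 36.9 ± 4.60% of TPM in KO (SD, n = 2) and 29.2 ± 2.33% in WT with beads (n = 3), and 68.3 ± 6.54% in KO (n = 6) and 56.5 ± 8.94% in WT without (n = 4). A share held by these genes lowers the TPM of all others, and its part in the results below was not tested except by the scalings given. The 4 stromal markers summed to 14.8 to 31.2 TPM in KO and 14.1 to 20.3 TPM in WT with beads, and 28.6 to 72.9 TPM in KO and 44.9 to 58.1 TPM in WT without. Sums with and without beads overlapped in KO cells and not in WT cells. Not every marker was lower with beads, since Col1a1 differed by 0.37 on the log2 scale in WT cells (SE 1.04). The 5 CD8 T and NK cell markers summed to 16.0 to 33.4 TPM in KO and 12.2 to 18.7 TPM in WT with beads, and 25.1 to 45.3 TPM in KO and 27.0 to 55.2 TPM in WT without, with Gzma at 0 in both KO bead libraries. The 5 B and plasma cell markers summed to 10.9 to 12.97 TPM in KO and 5.42 to 10.5 TPM in WT with beads, and 12.01 to 28.4 TPM in KO and 11.5 to 18.3 TPM in WT without. The 4 myeloid markers listed in both tables stayed under 7.1 TPM in sum, and the 3 erythroid markers overlapped, at 6.85 to 7.46 TPM in KO and 3.10 to 6.99 TPM in WT with beads, and 0 to 28.0 TPM in KO and 3.81 to 12.1 TPM in WT without. Their part in the bead responses was not tested. In bulk samples, fewer cells of a type and less RNA per cell cannot be told apart.

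All 35 genes passed the filter of 1 TPM in at least 2 libraries, and 27 were at 1 TPM or more in every library. Acad9, an acyl-CoA dehydrogenase that also helps assemble complex I, had the highest mean over the 4 groups, at 134 TPM. It was followed by Etfa (67.8 TPM), Etfb (67.7 TPM), Eci2 (53.0 TPM), Acot7 (52.1 TPM), Hsd17b10 (51.7 TPM) and Hadhb (50.7 TPM), whose order lies within their spread between libraries. The order depended on the group: Acad9 led without beads, at 183 TPM in KO and 198 TPM in WT, while Etfb led in KO cells with beads (121 TPM) and Etfa and Etfb in WT cells with beads (101 and 99.6 TPM, against 67.7 TPM for Acad9). Acsl6 (1.41 TPM), Mlycd (1.80 TPM), Ehhadh (1.84 TPM) and Cpt1a (3.80 TPM) were lowest. By the mean over the 4 groups, the most abundant gene of each role was Acot7 among thioesterases, Acsl5 (24.7 TPM) among synthetases, Cpt2 (13.5 TPM) in the carnitine shuttle, Acad9 among dehydrogenases, Etfa in the flavoprotein, Hsd17b10 in the later steps of the cycle, Eci2 among isomerases and Acaa1a (32.7 TPM) in peroxisomes. Without beads, Acot9 exceeded Acot7 and Hadhb exceeded Hsd17b10 in both genotypes, and Acsl1 exceeded Acsl5 in KO cells. Acot13, Acot8 and Mlycd were listed at 0 in at least 1 unstimulated library. Exons of 14 of the 35 genes overlap another annotated gene, 11 of them on the opposite strand.

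As deposited, Etfb and Acsl5 were called higher with beads in both genotypes, and the rest of the calls differed. A call in 1 genotype alone is not a difference between genotypes, and no gene of the set was called for that difference. Once predicted genes were left out, no gene of the set was called higher in WT cells. In KO cells Etfb, Acsl5, Hsd17b10, Acadvl, Eci1 and Hadh rose as deposited, and no fall was called, although Acad9 and Etfdh lay below every unstimulated KO library. In WT cells Etfb, Etfa and Acsl5 rose, while Acad9 and Acox3 fell. A call is an adjusted p under 0.05 in limma on log2(TPM + 1), adjusted by the Benjamini-Hochberg method over all 29989 genes. Calls are those of the deposited values unless a scaling is named. Bead and unstimulated tables list different genes, so a difference in their processing cannot be told apart from the beads. With Acot7, whose unstimulated libraries chose the set, 7 of the 35 genes were called higher and 0 lower in KO cells, against 5.95% and 2.15% of all genes. Scaled to abundant genes, as described below, 5 were called higher, again with Acot7, and 3 lower in KO cells (Acad9, Etfdh and Acox3), against 4.25% and 6.12% of all genes. In WT cells 3 were called higher and 2 lower, against 4.60% and 6.63% of all genes. With Acot7 counted in both, all bead libraries lay above all unstimulated libraries for 12 genes of the set in KO cells and 10 in WT cells, against 11.2% and 8.61% of all genes. They lay below for 2 and 4 genes, against 11.5% and 20.9%. The median bead response of the set was 0.71 on the log2 scale in KO and 0.15 in WT cells, beside -0.23 and -0.44 over all genes and 0.09 and -0.39 over the 14262 genes that averaged 5 TPM or more in some group.

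**Figure D1:**
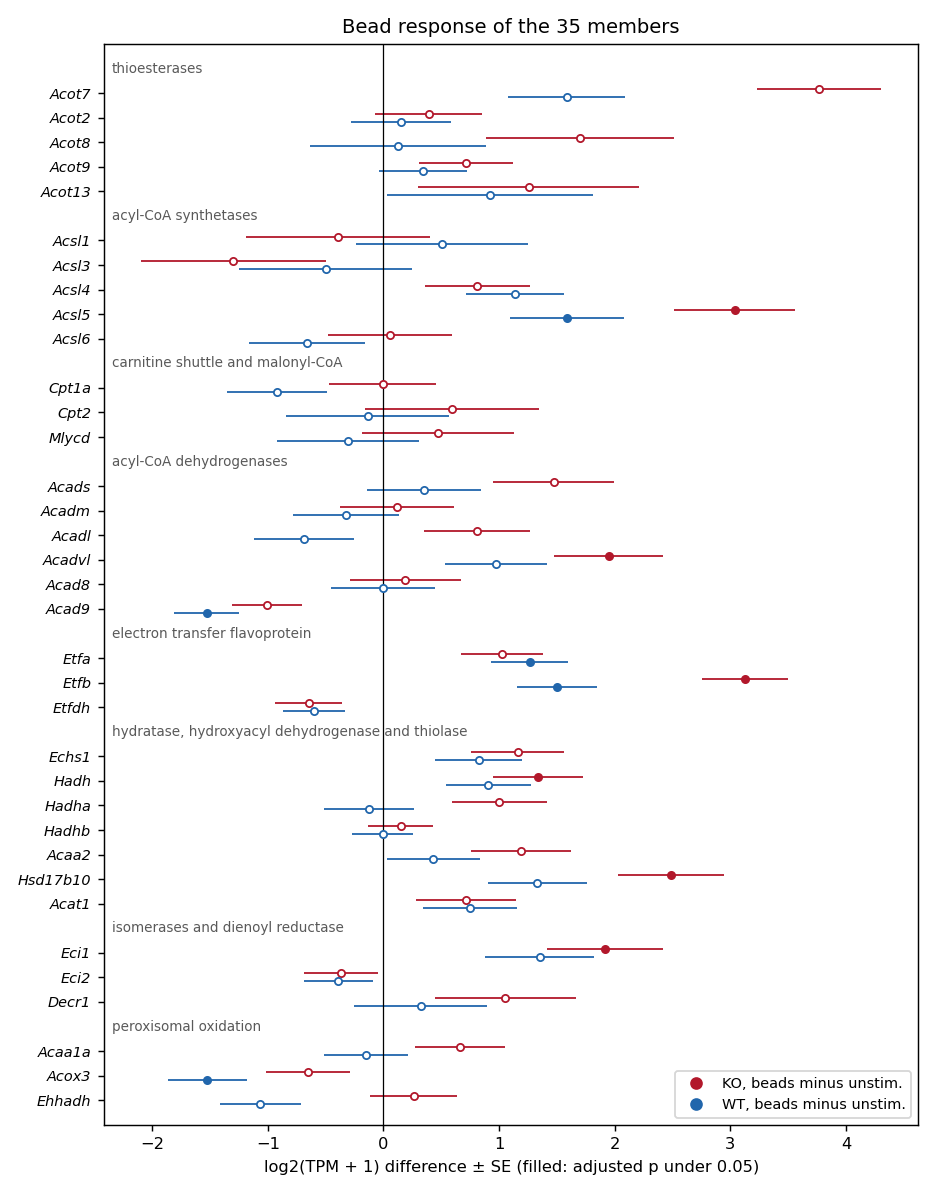
Bead response of each of the 35 genes, as the limma log2(TPM + 1) difference (x axis, beads minus unstimulated) with its SE as a line, in KO cells (red) and WT cells (blue), by role. Filled points have an adjusted p under 0.05; Acot7 is drawn open because its unstimulated libraries chose the set. Etfb (3.13 in KO, 1.50 in WT) and Acsl5 (3.04 in KO, 1.58 in WT) are filled in both.

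Among the thioesterases, Acot7, a cytosolic enzyme best known from brain, had 70.1 and 84.1 TPM in KO cells with beads. In WT cells with beads it had 77.9, 100 and 105 TPM. Unstimulated KO libraries had 8.54, 7.70, 3.85, 0.808, 3.51 and 9.64 TPM, and unstimulated WT libraries 19.3, 36.7, 31.7 and 38.4 TPM. Every bead library lay above every unstimulated library, every unstimulated KO library lay below every unstimulated WT library, and with beads the lowest WT library lay between the KO libraries. The log2 difference between beads and medium was 3.77 (SE 0.54) in KO and 1.58 (SE 0.50) in WT cells, both given without a test. With beads, where libraries took no part in choosing it, Acot7 in KO minus WT differed by -0.28 (SE 0.60, 95% interval -1.56 to 1.00, limma adjusted p = 1.00). That SE rests on 1 spread shared by all 4 groups, so the unstimulated libraries entered it. The SD of log2(TPM + 1) for Acot7 was 0.18 in KO and 0.23 in WT with beads, and 0.96 in KO and 0.44 in WT without. The exons of Acot7 (ENSMUSG00000028937, chromosome 4, 152178134 to 152271855, plus strand, mm10) overlap no other annotated gene.

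The other 4 thioesterases were Acot2, Acot9 and Acot13 of mitochondria and Acot8 of peroxisomes. All 4 had positive bead responses in both genotypes, and none was called. Acot9 averaged 47.0 ± 4.40 TPM in KO (SD, n = 2) and 49.9 ± 14.1 TPM in WT with beads (n = 3), and 29.5 ± 10.9 TPM in KO (n = 6) and 41.2 ± 19.6 TPM in WT without (n = 4). Acot8 ranged from listed at 0 to 37.1 TPM over the 15 libraries. Acot2 has a near-identical neighbour, Acot1, and its reads could be shared with it, so its value is uncertain.

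Of the synthetases, Acsl5, which loads long chains in mitochondria and endoplasmic reticulum, had 37.6 and 34.7 TPM in KO and 42.1, 42.3 and 45.2 TPM in WT cells with beads. Unstimulated KO libraries had 6.57, 2.08, 2.50, 9.67, 1.39 and 3.09 TPM, and unstimulated WT libraries 12.1, 7.98, 13.1 and 27.3 TPM. Bead libraries did not overlap with unstimulated ones, and the unstimulated genotypes overlapped. Acsl5 rose by 3.04 with beads in KO cells (SE 0.52, limma adjusted p = 0.00237), a call lost without KO bead library 5 (adjusted p 0.000644 to 0.0514 over 26 alternatives). It rose by 1.58 in WT cells (SE 0.49, limma adjusted p = 0.0496), a call that held in 10 of 26 alternatives and was lost without any 1 of 11 libraries: WT unstimulated unnumbered, 1 or 2, KO unstimulated 1, 2 or 5, or any bead library. Its exons overlap those of Zdhhc6 on the opposite strand, and the sources used here do not say whether the authors' counting used strand. The other 4 synthetases were not called as deposited, and Acsl4 was called higher with beads in WT cells with median-ratio scaling. Acsl4, which prefers arachidonate, had 7.28 ± 0.101 TPM in KO and 7.70 ± 0.489 TPM in WT with beads, and 4.30 ± 3.28 TPM in KO and 3.01 ± 0.735 TPM in WT without. Acsl3, which acts at lipid droplets and endoplasmic reticulum, had 1.36 and 0.825 TPM in KO and 7.51, 1.47 and 7.61 TPM in WT with beads. With beads, its KO libraries were both lower than any WT library.

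In the carnitine shuttle no gene was called in any comparison as deposited. Cpt1a was called lower with beads in WT cells once predicted genes were left out. Cpt2, the inner membrane transferase, was at 16.9 and 6.74 TPM in KO and 19.5, 8.32 and 16.8 TPM in WT with beads, and its unstimulated libraries spanned 1.78 to 22.04 TPM in KO and 11.0 to 33.9 TPM in WT. Cpt1a, the malonyl-CoA-sensitive transferase of the outer membrane and the gate of mitochondrial oxidation, was low throughout, at 1.56 to 7.95 TPM over the 15 libraries. Mlycd, which removes malonyl-CoA, was at 0 to 5.27 TPM. The bead responses of Cpt1a were -0.01 (SE 0.46) in KO and -0.92 (SE 0.43, limma adjusted p = 0.193) in WT cells.

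Among the acyl-CoA dehydrogenases, Acad9 had 82.8 and 92.4 TPM in KO and 60.1, 80.2 and 62.8 TPM in WT with beads. Unstimulated KO libraries had 155, 213, 175, 279, 141 and 135 TPM, and unstimulated WT libraries 153, 189, 217 and 233 TPM. All bead libraries lay below all unstimulated libraries. The WT response was a fall by 1.53 (SE 0.28, limma adjusted p = 0.00354), called in all 26 alternatives. In KO cells the difference was -1.01 (SE 0.30, limma adjusted p = 0.0522), which missed the threshold as deposited and passed it under the other 3 scalings. The exons of Acad9 overlap those of Gm43079 on the same strand, so reads may have been split between them.

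Acadvl, which begins the oxidation of very long chains, had 33.5 and 42.6 TPM in KO and 37.9, 33.6 and 34.6 TPM in WT with beads. Without beads it had 16.9, 3.76, 8.22, 17.4, 5.45 and 10.2 TPM in KO and 18.6, 24.7, 18.5 and 10.9 TPM in WT. It rose by 1.95 with beads in KO cells (SE 0.47, limma adjusted p = 0.0192), a call lost without KO bead library 4 or 5 (adjusted p 0.00893 to 0.227 over 26 alternatives). In WT cells the difference of 0.97 (SE 0.44) was not called (limma adjusted p = 0.177), although every bead library lay above every unstimulated one. Its exons overlap Dvl2 on the opposite strand. Acadm (9.52 to 43.4 TPM), Acadl (3.18 to 26.6 TPM), Acads (0.91 to 11.5 TPM) and Acad8 (2.78 to 17.2 TPM), the medium-chain, long-chain, short-chain and isobutyryl-CoA enzymes, were not called in either response as deposited. Acadl was called lower in WT cells once predicted genes were left out.

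Both subunits of the electron transfer flavoprotein were called in WT cells and Etfb in KO cells. Etfb, the beta subunit, had 111 and 132 TPM in KO and 93.4, 110 and 95.8 TPM in WT with beads. Unstimulated KO libraries had 17.9, 10.1, 11.5, 14.7, 17.9 and 8.29 TPM, and unstimulated WT libraries 19.0, 35.01, 41.1 and 51.3 TPM. Bead and unstimulated libraries were separated by a wide gap in KO cells and by a smaller one in WT cells. Etfb rose by 3.13 in KO (SE 0.37, limma adjusted p = 2.0e-04), a call kept in all 26 alternatives. It rose by 1.50 in WT (SE 0.35, limma adjusted p = 0.0121), a call kept in 23 of 26 and lost without WT bead library 2 (adjusted p 0.000303 to 0.0641). Its exons overlap Mir7051 and Gm45233 on the same strand.

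Etfa, the alpha subunit, had 86.8 and 82.2 TPM in KO and 115, 97.3 and 90.4 TPM in WT with beads. Without beads it had 41.9, 40.6, 53.0, 40.4, 41.1 and 31.7 TPM in KO and 19.7, 46.5, 56.1 and 55.5 TPM in WT. It rose by 1.26 in WT (SE 0.33, limma adjusted p = 0.0230), a call lost without any 1 WT bead library (adjusted p 0.000666 to 0.208 over 26 alternatives). In KO cells every bead library lay above every unstimulated one, and the difference of 1.02 (SE 0.35) was not called (limma adjusted p = 0.0942). Etfdh, which passes the electrons on to ubiquinone, lay the other way, below its unstimulated libraries in both genotypes: 23.0 ± 2.36 TPM in KO and 21.9 ± 3.31 TPM in WT with beads, against 36.9 ± 5.84 TPM in KO and 34.4 ± 9.45 TPM in WT without. Its differences of -0.65 (SE 0.29) in KO and -0.60 (SE 0.27) in WT were not called as deposited (limma adjusted p = 0.204 and 0.170). Etfdh was called lower in KO cells when scaled to abundant genes (-1.11, limma adjusted p = 0.0255) and in both genotypes once predicted genes were left out, while median-ratio scaling gave 0.00 in WT cells.

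**Figure D2:**
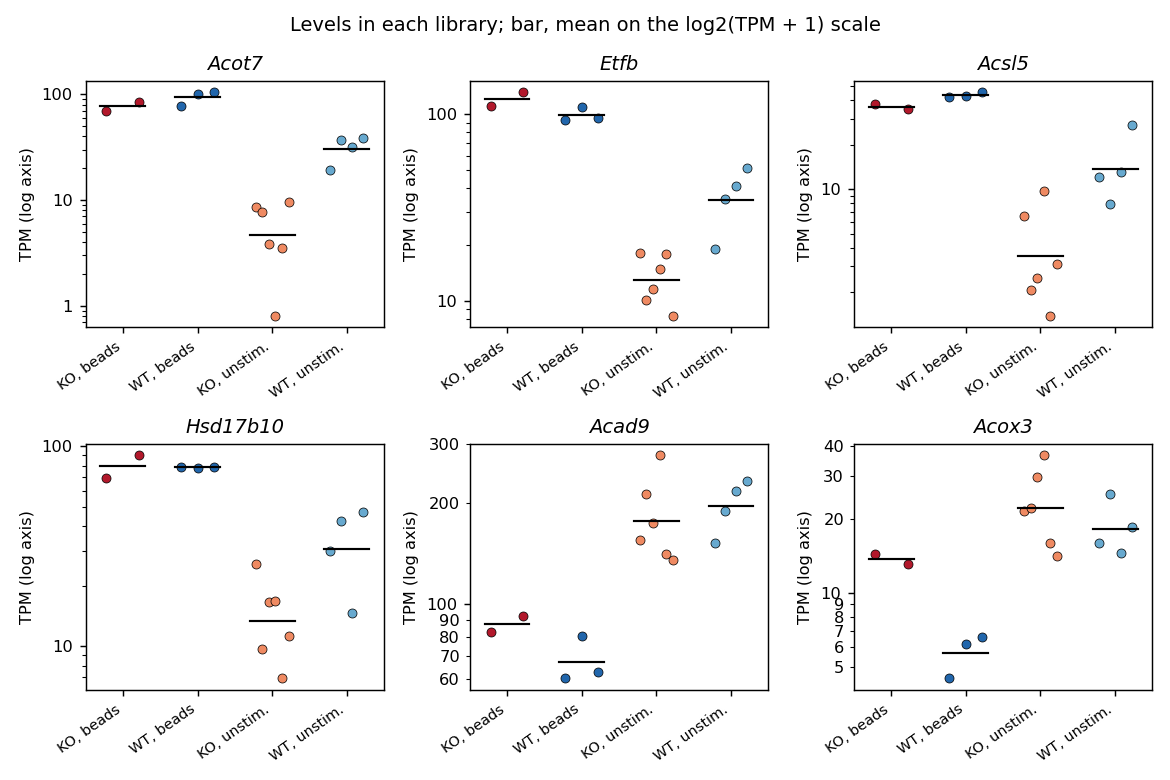
TPM (y axis, log scale) of 6 genes in each library, with KO with beads (n = 2), WT with beads (n = 3), unstimulated KO (n = 6) and unstimulated WT (n = 4) from left to right. Each point is 1 library and each bar the mean on the log2(TPM + 1) scale. Acot7, Etfb, Acsl5 and Hsd17b10 are higher and Acad9 lower in every bead library than in every unstimulated library of the same genotype.

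In the later steps of the cycle, Hsd17b10, a hydroxyacyl-CoA dehydrogenase that is also a subunit of mitochondrial RNase P, had 69.4 and 90.5 TPM in KO and 79.2, 77.9 and 79.2 TPM in WT with beads. Unstimulated KO libraries had 25.8, 9.69, 16.6, 16.9, 6.91 and 11.3 TPM, and unstimulated WT libraries 30.1, 42.2, 14.6 and 47.2 TPM. The bead libraries of the 2 genotypes lay at the same level. It rose by 2.48 in KO (SE 0.46, limma adjusted p = 0.00378), a call kept in 24 of 26 alternatives and lost without KO bead library 5 (adjusted p 0.00120 to 0.0980). In WT cells the difference of 1.33 (SE 0.43) missed the threshold as deposited (limma adjusted p = 0.0586). Hsd17b10 lies on the X chromosome, as do Acot9 and Acsl4. For these 3 genes, where KO and WT are compared, the copy on the active X chromosome also cannot be told apart from DOCK8 deficiency.

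Hadh, the hydroxyacyl dehydrogenase of medium and short chains, had 22.9 and 29.1 TPM in KO and 23.7, 26.9 and 26.6 TPM in WT with beads. Without beads it had 12.3, 6.37, 11.99, 13.03, 5.26 and 11.7 TPM in KO and 20.2, 14.2, 12.8 and 8.24 TPM in WT. The rise by 1.34 in KO (SE 0.39, limma adjusted p = 0.0470) was called in 10 of 26 alternatives and lost without any 1 of 10 libraries: WT unstimulated 1 or 2, KO unstimulated 1, 4 or 5, or any bead library. Hadha and Hadhb, the alpha and beta subunits of the trifunctional protein, are divergent genes whose promoter windows overlap on chromosome 5. Hadhb was at 48.9 ± 0.333 TPM in KO and 54.2 ± 3.80 TPM in WT with beads, against 45.3 ± 12.2 TPM in KO and 54.6 ± 6.14 TPM in WT without. Hadha was at 40.0 ± 6.29 TPM in KO and 34.8 ± 6.89 TPM in WT with beads, against 20.4 ± 7.85 TPM in KO and 41.1 ± 21.2 TPM in WT without. Its KO response of 1.00 (SE 0.41) was not called (limma adjusted p = 0.167). Echs1, the short-chain hydratase, and the thiolases Acaa2 and Acat1 had positive bead responses in both genotypes, from 0.43 to 1.19, and were not called as deposited. With median-ratio scaling Echs1 was called higher in both genotypes and Acat1 in WT cells.

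Of the enzymes that prepare unsaturated chains, Eci1, the mitochondrial enoyl-CoA isomerase, had 49.0 and 43.0 TPM in KO and 54.9, 37.0 and 51.9 TPM in WT with beads. Without beads it had 16.3, 13.6, 4.42, 21.5, 6.16 and 16.0 TPM in KO and 24.7, 21.5, 9.50 and 20.1 TPM in WT. It rose by 1.91 in KO (SE 0.50, limma adjusted p = 0.0290), a call lost without KO bead library 4 or 5 (adjusted p 0.0125 to 0.230 over 26 alternatives). In WT the difference of 1.35 (SE 0.47) was not called (limma adjusted p = 0.0780), with every bead library above every unstimulated one. Eci2, an isomerase found in peroxisomes and mitochondria, had 58.5 and 48.2 TPM in KO and 48.7, 38.4 and 27.6 TPM in WT with beads. It was not called in any comparison as deposited, and was called lower with beads in both genotypes once predicted genes were left out. Decr1, the dienoyl-CoA reductase, ranged from 3.74 to 28.6 TPM and was not called.

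In peroxisomes, Acox3, an oxidase of branched-chain acyl-CoA, had 14.4 and 13.2 TPM in KO and 4.49, 6.20 and 6.63 TPM in WT with beads. Unstimulated KO libraries had 21.7, 22.2, 29.7, 36.7, 16.0 and 14.2 TPM, and unstimulated WT libraries 16.0, 25.4, 14.6 and 18.7 TPM. The WT bead libraries were the lowest of all 15, and KO bead libraries overlapped with unstimulated KO. Acox3 fell by 1.52 in WT (SE 0.34, limma adjusted p = 0.0104), a call kept in 25 of 26 alternatives and lost without WT bead library 1 (adjusted p 0.000386 to 0.0577). In KO the difference was -0.65 (SE 0.37, limma adjusted p = 0.333), and it was called when scaled to abundant genes (-1.11, limma adjusted p = 0.0474) and once predicted genes were left out (-1.54, limma adjusted p = 0.00967). Its exons overlap 4931431C16Rik on the opposite strand. Ehhadh, the bifunctional enzyme, was near 1 TPM, at 1.74 and 1.86 TPM in KO and 1.26, 0.777 and 0.886 TPM in WT with beads, against 0.710 to 2.21 TPM in KO and 2.17 to 4.57 TPM in WT without. Its WT bead libraries lay below every unstimulated WT library, and the difference of -1.06 (SE 0.35) was not called as deposited (limma adjusted p = 0.0643). Ehhadh was called lower in WT cells once predicted genes were left out. Acaa1a, the peroxisomal thiolase, had 42.6 and 36.1 TPM in KO and 27.1, 36.0 and 27.8 TPM in WT with beads, and was not called. It has a near-identical paralog, Acaa1b, and its value is uncertain for that reason.

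Which of these calls depended on how the libraries were scaled was examined with 3 further scalings: to 815 abundant genes, by median ratios over 15083 genes, and after leaving out the 8755 predicted genes among those tested. In KO cells Acsl5, Etfb and Hsd17b10 were called under all 4 scalings. Acadvl, Eci1 and Hadh were not called once predicted genes were left out, and Eci1 and Hadh were also not called when scaled to abundant genes (limma adjusted p = 0.0532 and 0.177). The KO counts were 9 higher and 1 lower with median ratios, against 7.53% and 1.82% of all genes. Without predicted genes they were 4 higher and 4 lower (Acad9, Etfdh, Acox3 and Eci2), against 3.95% and 11.8%. Acot7, whose unstimulated libraries chose the set, is among the higher genes in both counts. In WT cells Acad9 and Acox3 were called under all 4 scalings. The WT counts were 4 higher and 2 lower when scaled to abundant genes, against 4.88% and 5.74% of all genes. With median ratios they were 11 higher, Acot7 among them, and 2 lower, against 8.48% and 2.06%. Without predicted genes they were 0 higher and 7 lower, against 3.59% and 17.1%. The 7 were Acad9, Acox3, Etfdh, Eci2, Ehhadh, Cpt1a and Acadl. The scalings moved the median bead response of all genes to between -0.74 and -0.14 in KO and between -0.90 and -0.15 in WT cells. Relative to zero, 18 genes of the set were positive, 6 negative and 11 differed in sign between scalings in KO cells, and 12, 6 and 17 in WT cells.

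**Figure D3:**
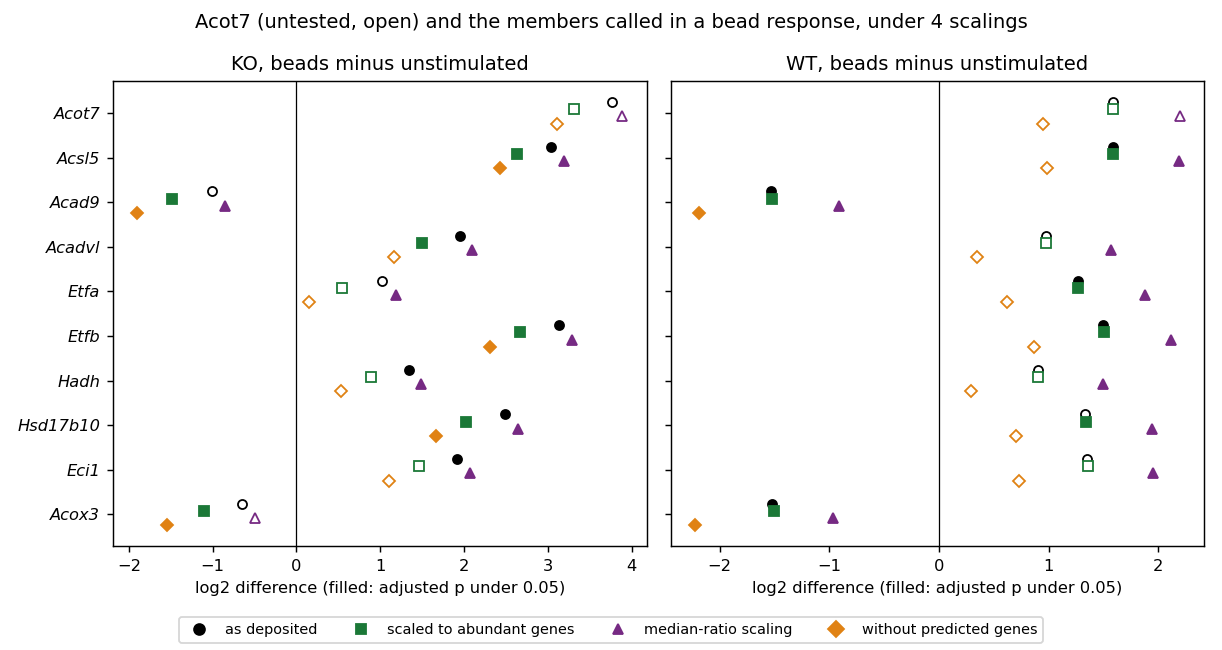
log2 difference between beads and medium (x axis) for Acot7 and the 9 other genes called in either genotype as deposited, in KO cells (left) and WT cells (right), as deposited and under 3 further scalings. Filled symbols have an adjusted p under 0.05, and Acot7 is drawn open throughout. Acsl5, Etfb and Hsd17b10 are filled under all 4 scalings in KO cells, and Acad9 and Acox3 in WT cells.

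With beads, no gene of the set was called between KO and WT cells. The spread behind these p-values and intervals is shared by all 4 groups, unstimulated ones included. limma called 0 of the 35 genes higher and 0 lower in KO, against 0% and 0.00333% of all genes. Before adjustment, 1 gene of the set was higher and 0 lower in KO at p under 0.05, against 2.17% and 0.720% of all genes. That gene was Acox3, higher by 1.14 in KO (SE 0.41, 95% interval 0.27 to 2.01, unadjusted p = 0.0138, limma adjusted p = 1.00). Acsl3 had the next smallest p of the set after Acox3 (-1.45, SE 0.90), followed by Eci2 (0.50, SE 0.36), both with limma adjusted p = 1.00. Both KO libraries lay above all WT libraries for 6 genes of the set and below for 4, against 17.4% and 8.02% of all genes. The 6 were Acox3, Ehhadh, Acaa1a, Acad9, Acot13 and Etfb, a share near that over all genes, and the 4 were Acsl3, Acsl5, Etfa and Hadhb. The median difference of the set was 0.07, beside 0.13 over all genes.

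**Figure D4:**
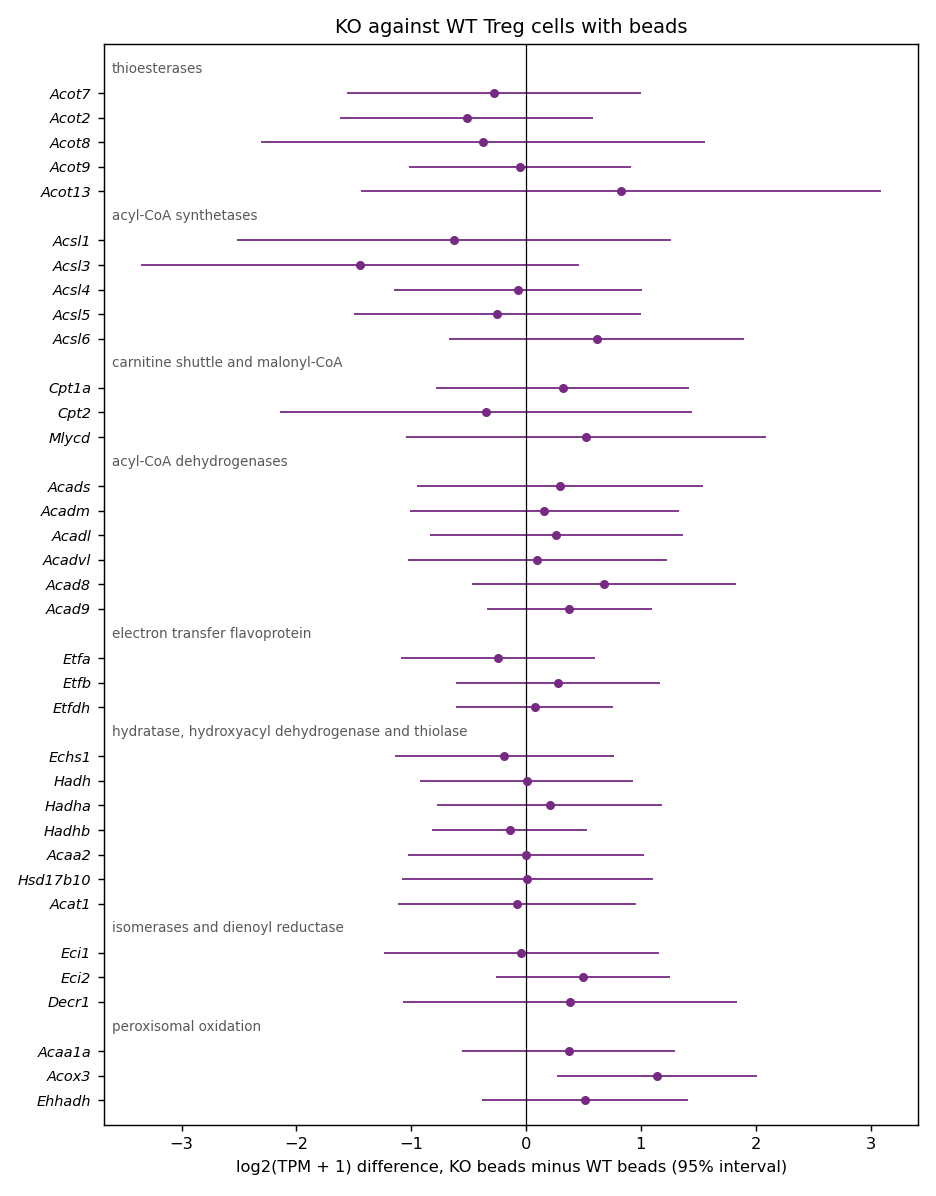
Difference between KO and WT cells with beads for each of the 35 genes (x axis, log2(TPM + 1), KO minus WT) with its 95% interval from limma, by role. The interval of Acox3 (0.27 to 2.01) lies above 0, and those of the other 34 genes include 0.

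The bead response itself was compared between genotypes as the KO response minus the WT response. No gene of the set was called in either direction, 0 higher and 0 lower, against 0.00333% and 0% of all genes. Before adjustment, 4 genes were higher and 0 lower at p under 0.05, against 3.49% and 0.664% of all genes. Apart from Acot7 (2.18, SE 0.74, no test) they were Etfb (1.63, SE 0.51, unadjusted p = 0.00583), Ehhadh (1.33, SE 0.52, unadjusted p = 0.0209) and Acadl (1.50, SE 0.63, unadjusted p = 0.0315), each with limma adjusted p = 0.999. The estimate was positive for 29 of 35 genes, beside 65.4% of all genes, and its median was 0.72, beside 0.27 over all genes. Scaled to abundant genes it was positive for 20 of 35 genes, beside 46.6%, and the medians were 0.28 and -0.06. So a larger response of Etfb in KO than in WT cells did not pass the threshold, although Etfb was called in both.

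Without beads, KO and WT cells differed in the contrast that chose Acot7, and the values are given as a description. Acot7 averaged 5.67 ± 3.46 TPM in KO (SD, n = 6) and 31.5 ± 8.64 TPM in WT (n = 4), a log2 difference of -2.46. Since this contrast chose Acot7, nothing is read from the count of 1 gene past the threshold lower and 0 higher, beside 0.0667% and 0.00667% of all genes. The next of the set in order of p were Etfb (-1.35), at 13.4 ± 4.07 TPM in KO and 36.6 ± 13.5 TPM in WT, and Acsl5 (-1.70), at 4.22 ± 3.23 TPM in KO and 15.1 ± 8.41 TPM in WT. For Acot7 and Etfb every KO library lay below every WT library, although for Etfb the highest KO library (17.9 TPM) was close to the lowest WT library (19.0 TPM). That was 2 genes lower and 0 higher without overlap, beside 1.27% and 0.293% of all genes. The estimate was negative for 28 of 35 genes, 22 of them under all 4 scalings, and the median was -0.44 as deposited and -0.08 scaled to abundant genes, beside -0.11 and 0.12 over all genes. As deposited it was positive for 20% of the set, beside 41.6% of all genes and 32.3% of those averaging 5 TPM or more in some group. Scaled to abundant genes it was positive for 37.1% of the set, beside 58.8% of all genes. Nothing is read from these counts either.

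**Figure D5:**
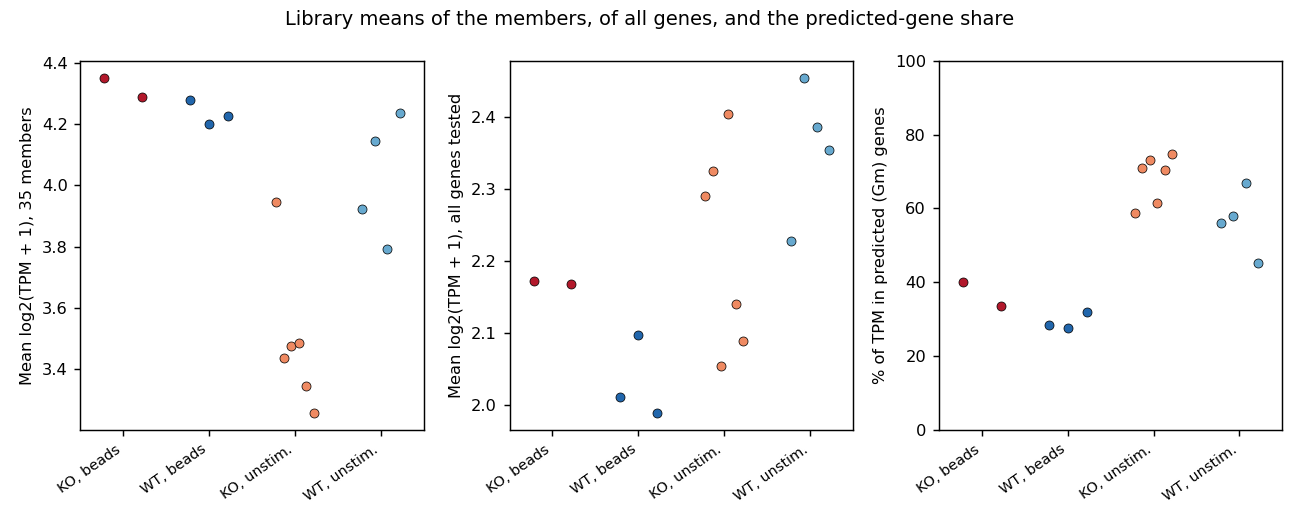
Mean log2(TPM + 1) over the 35 genes (left), over all genes tested (centre) and the percent of TPM in predicted genes (right) for each library (points), with KO with beads, WT with beads, unstimulated KO and unstimulated WT from left to right. The mean over the 35 genes is 3.26 to 3.95 in the 6 unstimulated KO libraries and 3.79 to 4.24 in the 4 unstimulated WT libraries, which overlap, while predicted genes hold 58.8 to 74.9% and 45.2 to 66.96% of TPM.

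The level of the whole set, as the mean log2(TPM + 1) over its 35 genes, was 4.32 ± 0.044 in KO and 4.24 ± 0.039 in WT with beads (SD, n = 2 and 3). Without beads it was 3.49 ± 0.240 in KO and 4.02 ± 0.203 in WT (n = 6 and 4). The summed TPM averaged 1104 in KO and 1059 in WT with beads, and 702 in KO and 904 in WT without. The unnumbered KO library, at 3.95, had the highest mean of the unstimulated KO libraries and the lowest share of predicted genes among them (58.8%). The other 5 unstimulated KO libraries lay between 3.26 and 3.49, below every WT library.

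Of 84 further genes of lipid use, 6 were called higher and 3 lower with beads in KO cells, and 2 higher and 7 lower in WT cells, against 5.95% and 2.15% of all genes in KO and 4.60% and 6.63% in WT. Fabp5, a carrier of fatty acids in the cytosol, had 48.4 and 73.4 TPM in KO and 71.5, 120 and 107 TPM in WT with beads. Unstimulated libraries held 0.489 to 3.58 TPM in KO and 1.01 to 5.76 TPM in WT. It rose by 4.56 in KO (SE 0.56, limma adjusted p = 2.3e-04) and by 4.72 in WT (SE 0.52, limma adjusted p = 1.4e-04). Dbi, the acyl-CoA-binding protein, rose in KO cells, to 173 ± 4.59 TPM (n = 2) against 31.4 ± 20.8 TPM in unstimulated KO (n = 6; log2 2.80, limma adjusted p = 0.0220). In WT cells it had 217 ± 41.8 TPM with beads (n = 3) and 67.5 ± 42.4 TPM without (n = 4; log2 1.82, limma adjusted p = 0.0888). Hif1a, the oxygen-responsive transcription factor, rose in KO cells, with 66.6 ± 14.3 TPM with beads and 21.6 ± 5.89 TPM without (log2 1.61, limma adjusted p = 0.00739), beside 64.3 ± 9.87 TPM with beads and 33.6 ± 8.49 TPM without in WT cells (log2 0.94, limma adjusted p = 0.0653).

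Lpl, a lipase of blood lipoproteins, fell by 1.12 in KO (limma adjusted p = 0.0333) and by 1.32 in WT (limma adjusted p = 0.00828). It had 26.4 ± 3.45 TPM in KO and 19.8 ± 4.16 TPM in WT with beads, and 59.3 ± 11.99 TPM in KO and 51.4 ± 12.8 TPM in WT without. Crot, the carnitine octanoyltransferase of peroxisomes, fell by 1.59 in WT cells (limma adjusted p = 0.00716), and Abhd5, the coactivator of triglyceride lipase, by 1.71 (limma adjusted p = 0.00723). Between KO and WT with beads no further gene was called. Hacl1, which cleaves branched chains in peroxisomes, averaged 13.8 ± 1.81 TPM in KO and 6.85 ± 2.31 TPM in WT (limma adjusted p = 1.00). For the difference between responses the smallest p belonged to Them6 (1.69) and Crat (2.12), limma adjusted p = 0.999 for both. Without beads, Oxct1, which activates ketone bodies, was at 8.51 ± 6.05 TPM in KO and 24.4 ± 4.31 TPM in WT, and Stk11, the kinase upstream of AMPK, at 6.83 ± 3.31 TPM in KO and 17.5 ± 7.55 TPM in WT, and neither was called. Lpl is also in the adipocyte marker list, of which Lpl, Plin1 and Cidec were listed in every group. These 3 genes summed to 26.1 to 31.5 TPM in KO and 16.6 to 26.4 TPM in WT with beads, and 52.1 to 81.5 TPM in KO and 43.6 to 76.0 TPM in WT without.

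Likeness to Acot7 over the 15 libraries was taken as the Pearson r of log2(TPM + 1), among 8357 genes averaging 5 TPM or more. Predicted genes, RIKEN clones, pseudogenes and antigen receptor segments were left out of these 8357. The most alike were Dnajc30 (0.949), Zcchc10 (0.945), Golga7 (0.941), Bcas2 (0.938) and Trappc4 (0.937). Of the set, Etfb (0.887), Hsd17b10 (0.849) and Acsl5 (0.834) came closest. Libraries of 1 group share treatment and genotype, and after each group's mean was removed the values were 0.696 for Dnajc30, -0.004 for Etfb, 0.051 for Hsd17b10 and -0.264 for Acsl5. So the values of these 3 genes of the set within groups were near 0 or negative.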

How the data were processed

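The authors deposited 1 table of TPM per library, indexed by Ensembl gene, and the submitters' processing notes name STAR, Salmon, DESeq2 and mm10 without versions or roles. TPM sums were 819697 to 938139 per library, and TPM keep no depth, so no count test was run. Unstimulated and bead tables list different genes (36904 and 31785), and the 30949 listed in both were used, with symbols and coordinates from GENCODE vM21. Treatment coincides with this split in every library. A difference in processing between the tables therefore cannot be told apart from the beads, and was not tested.

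The 29989 genes that reached 1 TPM in 2 or more libraries were fitted as log2(TPM + 1) in limma 3.58.1 (R 4.3.3) with the variance trend, 1 mean for each group and all 15 libraries, which left 11 residual degrees of freedom. Each gene has 1 spread shared by the 4 groups, so SE, intervals and p-values between bead groups also draw on unstimulated libraries. P-values were adjusted by the Benjamini-Hochberg method over all genes. Log2 differences use the log2(TPM + 1) scale and understate the change of low genes, SE are from limma, and ± is the SD between libraries. The fit was tested on simulated data.

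The 35 genes, the role groups, the 84 other genes, the marker lists and the naming rule were chosen with earlier results of these data known. Named with values and tests were Acot7, the called genes of each comparison (or the 3 smallest p), the most abundant gene of each role, up to 4 called other genes (or the 2 smallest p), and the genes most like Acot7; 1 gene that the rule names is not reported here. All 35 genes are accounted for, and values given beyond this rule were chosen after they were seen. Motif letters were also chosen after the data were seen. Libraries without a number in the title are called unnumbered.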

Additional observations from a re-analysis of the deposited data

Results flagged for a closer look

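In groups of 4 to 10 libraries, 70 groups of values were examined for a library far from the others by Dixon's test at 95%, which flags about 1 group in 20 by chance, and 4 were flagged. Acad8 was at 2.78 TPM in KO unstimulated library 3, below 9.58 to 17.2 TPM in the other 5. Acot13 was listed at 0 in WT unstimulated library 3, against 19.5 to 28.6 TPM in the other 3. Cpt2 was at 33.9 TPM in WT unstimulated library 1, above 11.0 to 12.8 TPM in the other 3. Eci2 was at 66.2 TPM in WT unstimulated library 3, above 44.1 to 45.3 TPM in the other 3. None of these 4 genes was called in any comparison as deposited. Eci2 was called lower with beads in both genotypes once predicted genes were left out.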

How the results depend on the processing

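The number of genes called in the KO bead response was 7, and it was 4 with only the groups compared, 3 without the 4 unstimulated KO libraries with over 70% of TPM in predicted genes (an alternative chosen after seeing the data, as was leaving out predicted genes), and 2 to 10 with a library left out, with 4 without KO bead library 4 and 2 without library 5. In the WT bead response it was 5, and it was 8 at a pseudocount of 5 and also without those KO libraries, 13 with median-ratio scaling, and 2 to 6 with a library left out: 2 without WT bead library 1 or 2, and 3 without library 3. Between unstimulated KO and WT, a contrast that chose Acot7 and is a description only, the count was 1, and it was 0 at a pseudocount of 0.1, without a filter, under either scaling, with only the groups compared, without predicted genes, without those KO libraries, and without any of 12 single libraries (0 to 1 over all).

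Apart from the scalings of the bead responses, the counts above stand without the share of all genes called in the same setting. So nothing is read from how they moved. Acot7, whose unstimulated libraries chose the set, is among the genes called in the KO response as deposited. It was not set apart in the other counts. Between KO and WT with beads the set's median turned to -0.20 with median-ratio scaling, and in the WT bead response to -0.46 without predicted genes, beside 0.72 with median-ratio scaling. The KO bead response had 0.26 when scaled to abundant genes, beside -0.46 over all genes, and 0.015 without predicted genes. The scalings moved the median of all genes in both bead responses as well, over the ranges given earlier. The difference between responses had 0.45 at a pseudocount of 5, 0.28 with median-ratio scaling, 0.28 when scaled to abundant genes and 0.19 without those KO libraries. Unstimulated, the median was -0.079 when scaled to abundant genes, -0.078 without predicted genes, -0.18 without those KO libraries and -0.67 to -0.41 with a library left out. The cause was not tested.

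With the title number as a replicate block, over 13 numbered libraries, 4 genes were called in the KO response, 2 in the WT response and 0 between unstimulated groups, and the KO median was 1.09. Without the block the same libraries gave 11 in the KO response and 2 between unstimulated groups. These counts also stand without the share of all genes and with Acot7 not set apart, and nothing is read from how they moved. Deviations of same-numbered libraries correlated at 0.0002 to 0.0475 between WT groups, -0.0213 to 0.0270 between unstimulated KO and WT, and -0.0619 and -0.0056 between KO groups. These values gave no sign of pairing by number. They cannot exclude it, since same-numbered libraries are few and the deviations of the 2 KO bead libraries mirror each other. Groups of 2 and 3 with beads and an unknown depth limit the precision throughout.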
